A study of Mus musculus with 6 samples.

Results

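The miR-132 and miR-212 cluster is a pair of neighbouring microRNA (miRNA) hairpins, and its members were taken by name from the reporters of a mouse miRNA array: mmu-miR-132, mmu-miR-212-3p and mmu-miR-212-5p, 3 of 1078 reporters. The arrays read RNA of vascular smooth muscle cells (VSMCs), which contract the wall of arteries. The cells were taken from abdominal aorta of 8-week-old C57BL/6 mice, cultured, and harvested after several passages. VSMCs treated with TNF-α, an inflammatory cytokine, gave 3 arrays, and untreated control VSMCs gave 3. Cultures were grown and harvested independently, per the series' design text, and p-values reflect the variation among them. How many mice they came from, and the dose and duration of TNF-α, were not given in the sources used here.

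miRNAs are short RNAs that pair with target mRNAs mainly through the seed, bases 2 to 8 from the 5′ end, and lower the output of those mRNAs. miR-132 and miR-212 are cut from a shared primary transcript that the transcription factor CREB, the cyclic AMP response element-binding protein, is known to drive in neurons. In rats angiotensin II, the pressor hormone, is known to raise both in arteries, and miR-132 is known to restrain the growth of cultured arterial smooth muscle cells. In endothelial cells miR-132 is known to lower Rasa1, a brake on Ras signalling. The transcript and CREB were not measured on these arrays, so the driver named for the cluster was not checked here.

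Both hairpins lie on the plus strand of mouse chromosome 11 (GRCm38.p6), Mir212 at chr11:75173388-75173478 and Mir132 at chr11:75173682-75173747, with 203 bases between them. No other gene of the RefSeq table overlaps either hairpin. The nearest protein-coding genes are Hic1, a transcriptional repressor, 3132 bases before Mir212 by coordinate, and Ovca2, 2195 bases after Mir132. Both are on the minus strand, so the start of Hic1 and the end of Ovca2 face the hairpins. The RefSeq hairpins are shown because they place the arms that the reporters read, and the capitals mark the mature 5p and 3p arms.
Mir212: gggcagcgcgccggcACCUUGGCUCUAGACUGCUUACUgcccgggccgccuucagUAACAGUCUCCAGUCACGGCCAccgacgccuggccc
Mir132: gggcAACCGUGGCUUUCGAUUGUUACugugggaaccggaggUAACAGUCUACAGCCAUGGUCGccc

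The reporter named miR-132 carries the older name of the 3p arm, and the 5p arm, which is no member, is on the array as miR-132*. The mature sequences (RefSeq, GRCm38.p6) show which arms can share targets, and the capitals mark the seed.
miR-132-3p: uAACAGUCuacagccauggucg
miR-212-3p: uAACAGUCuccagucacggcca
miR-132-5p: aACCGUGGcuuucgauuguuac
miR-212-5p: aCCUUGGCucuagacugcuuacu
The 3p arms of the 2 hairpins have the same seed, and among 1679 mature mouse miRNA names in the RefSeq table only these 2 have it. Compared without gaps, they are identical at 17 of 22 positions, the first 9 among them. Counted from the 5′ end of miR-132-3p, the changes to miR-212-3p are A10C, C14U, U17C, U20C and G22A. No other mature miRNA in the table matched miR-132-3p at more than 13 positions in the same alignment, or miR-212-3p at more than 13. How far a reporter for one 3p arm also binds the other arm was not tested. The 5p arms have different seeds, each found in that arm only, and are identical at 9 of 22 positions.

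Each reporter has 1 median density per array, an intensity in scanner units from which background had not been subtracted. The commonest density of an array, its background peak, was 81.0 to 89.7 on TNF-α arrays and 66.1 to 75.8 on control arrays. A reporter was taken as above background where it exceeded the peak by 3 SD, taken from values under it, a limit of 116 to 127 on TNF-α arrays and 88.6 to 101 on control arrays. By that limit 241 to 256 reporters were above background on TNF-α arrays and 306 to 339 on control arrays. Background therefore moved with the groups, and no slide is named in the files, so technical and TNF-α effects on the arrays cannot be told apart. The VSMC miRNAs miR-143 and miR-145 were far above the limit on all 6 arrays. Of 5 blood and immune marker miRNAs, 4 were above it on no array, and of 4 neural markers 3 were above it on no array. The summed density was 384 to 445 on TNF-α arrays and 361 to 392 on control arrays for the blood and immune markers, and 485 to 511 against 492 to 506 for the neural ones. miR-128, a neural marker with a broader range, was at 262 ± 16.0 with TNF-α and 272 ± 8.93 in controls (SD, n = 3 each). The endothelial marker miR-126-3p was above the limit on all 6 arrays, at 134 ± 15.2 with TNF-α and 137 ± 19.3 in controls, while the other arm, miR-126-5p, exceeded it on no array. The striated muscle marker miR-206 was lower with TNF-α, at 189 ± 17.7 against 257 ± 19.9 in controls (log2 change -0.49, limma adjusted p = 0.00339), and its part in the results was not tested. The striated muscle markers miR-133a, above the limit on no array, and miR-133b, above it on 2 control arrays only, did not pass. Their log2 changes were -0.04 and -0.06 (limma adjusted p = 0.760 and 0.674).

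None of the 3 members passed the test as changed by TNF-α, and miR-132, the brightest of them, is the only one that was above background on all arrays. Corrected densities were tested with limma after quantile normalization, and 146 of 642 tested reporters passed an adjusted p of 0.05, or 22.7%. Of the 642, 293 were above the background limit on at least 3 arrays, and among these 46 were higher and 46 lower. The filter passed more reporters through the TNF-α arrays. With 1 TNF-α array left out 500 reporters were tested, against 614 to 626 with 1 control array left out. Shares of all tested reporters given here rest on that set of 642. All 3 members were tested, 0 of 3 passed by limma, and 0 of 3 had an unadjusted p under 0.05, against 35.5% of all tested reporters. The normalized values of the TNF-α and control arrays overlapped for every member, while those of 40% of tested reporters did not. With scaling of the arrays to a common median, and in the authors' processed values, miR-132 was called lower.

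miR-132 had densities of 392, 452 and 365 on TNF-α arrays 1 to 3, against 483, 551 and 445 on control arrays 1 to 3. The TNF-α values tended to be lower, but the groups overlapped, because TNF-α array 2 read slightly above control array 3. The means were 403 ± 44.8 with TNF-α and 493 ± 53.9 in controls (SD, n = 3 each), a ratio of 0.818. Within an array, the deposited SD of the miR-132 density was 6.06% to 9.50% of the density, and the files do not say over what it was taken. With the background peak of each array subtracted, the values were 302, 363 and 284 with TNF-α against 411, 476 and 379 in controls. On that scale every TNF-α value lay below every control value, as it did for 22.1% of the tested reporters, and the ratio of the means was 0.750.

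**Figure D1:**
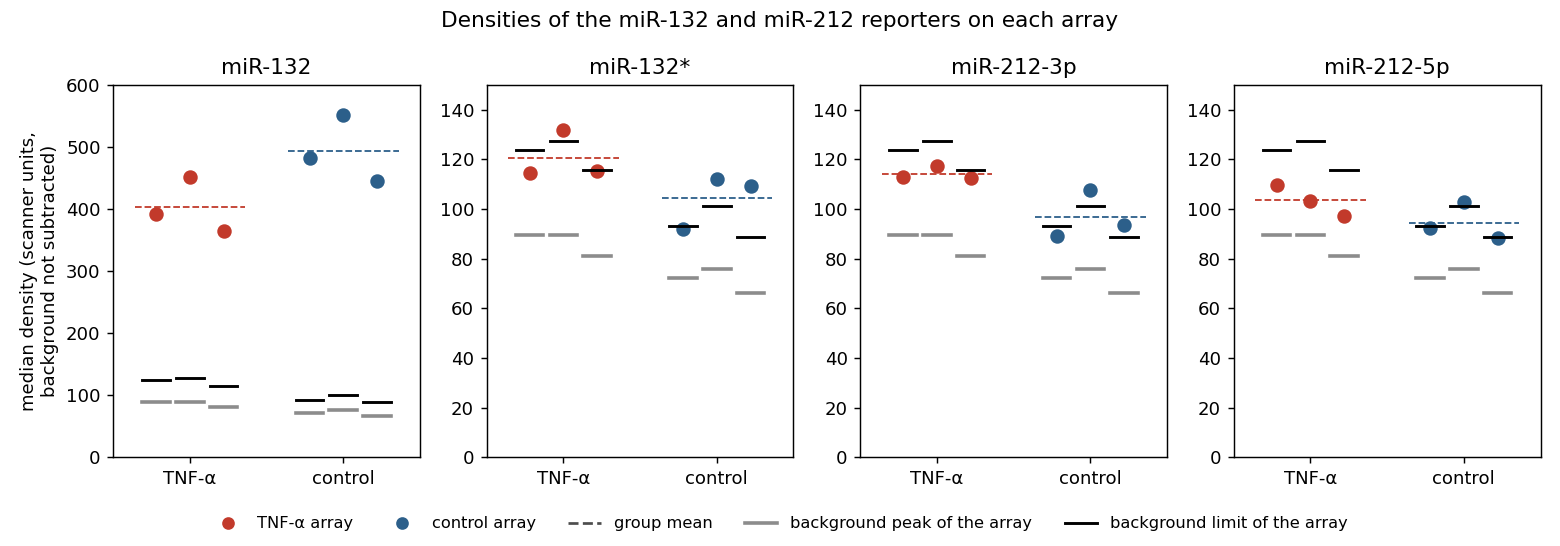
Median density (scanner units) of miR-132, miR-132*, miR-212-3p and miR-212-5p on each array, with points for the 3 TNF-α and 3 control arrays in replicate order, dashed lines for group means, and grey and black bars for the background peak and background limit of each array. The miR-132 panel has a longer axis than the others. miR-132 stands well above the limit on all 6 arrays, and the other reporters lie near it.

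The place of miR-132 among the reporters of an array hardly moved. It ranked 110, 107 and 110 from the brightest on TNF-α arrays 1 to 3, and 108, 106 and 104 on control arrays 1 to 3. Quantile normalization sets equal ranks to equal values. After it, miR-132 stood at log2 values of 8.68, 8.82 and 8.68 with TNF-α and 8.75, 8.85 and 8.91 in controls. The change was -0.11 ± 0.08 on the log2 scale (SE, n = 3 per group, limma adjusted p = 0.332). Its 95% interval, -0.29 to 0.06, covers folds of 0.818 to 1.04 for TNF-α over control.

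The outcome for miR-132 turned on how the arrays were scaled. In median scaling the arrays were brought to the median of the 339 reporters with a corrected density of at least 32 on all arrays. That set includes readings near background, such as those of miR-212-3p. Quantile normalization used all 1078 reporters and so took in more readings near background than median scaling did. With this scaling miR-132 was called lower, at -0.36 (limma adjusted p = 0.0170), as were 9.35% of tested reporters. In the authors' processed intensities it read 308, 356 and 281 with TNF-α against 414, 463 and 376 in controls. The groups did not overlap there, with TNF-α lower, as for 36.1% of the 285 reporters tested in that table. The change was -0.37 (limma adjusted p = 0.0206), in a table where 28.4% of tested reporters were called lower. With cyclic loess it was -0.20 (adjusted p = 0.0903) and without normalization -0.30 (adjusted p = 0.0546). The median change of all tested reporters was 0.01 with quantile normalization and 0.14 without normalization. It was 0.09 under median scaling and -0.12 in the authors' table. Relative to these medians the change of miR-132 was -0.12, -0.44, -0.44 and -0.25, in the order given. The first 3 medians are over 642 reporters, of which 293 were above the background limit on at least 3 arrays. Those medians therefore include many readings near background, which moved with the groups. Over the 293 the median was -0.03 with quantile normalization.

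The call with median scaling was lost without control replicate 2 (-0.29, adjusted p = 0.0896) or TNF-α replicate 1 (-0.32, adjusted p = 0.0668). In the processed table it was lost without control replicate 2 (-0.30, adjusted p = 0.0880) or TNF-α replicate 3 (-0.30, adjusted p = 0.0785). With quantile normalization the change lay between -0.17 and -0.08 with each array left out in turn, and no such fit called it.

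**Figure D2:**
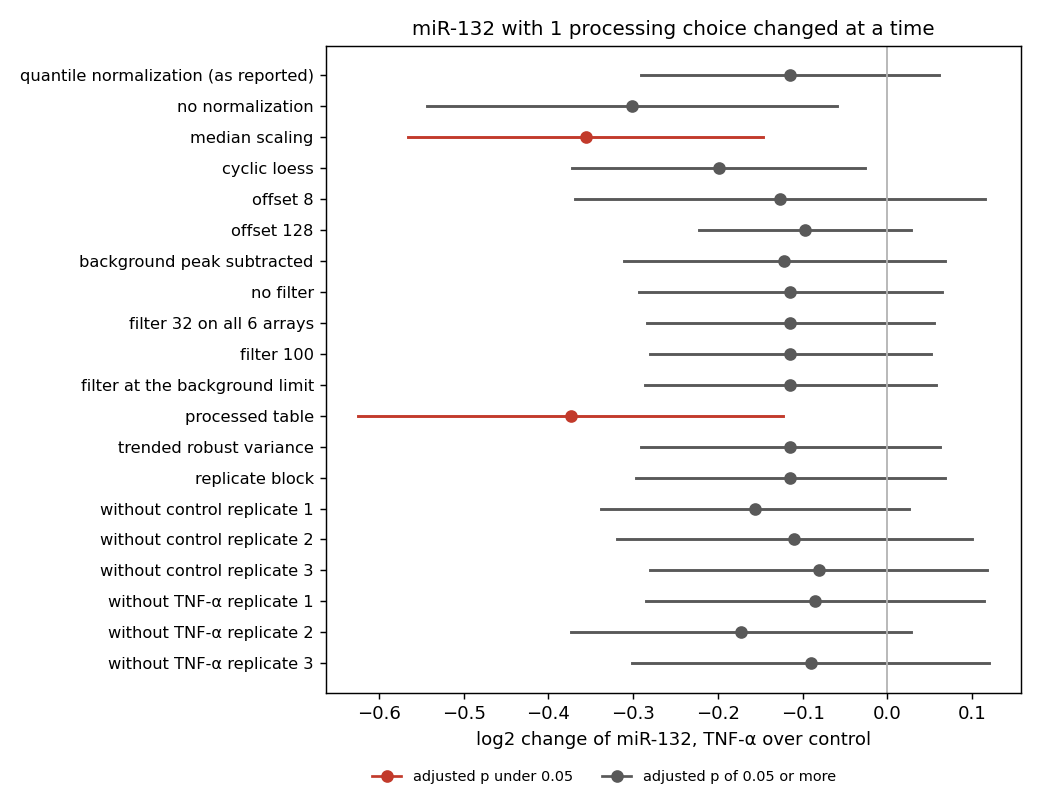
The log2 change of miR-132, TNF-α over control, under each setting with 1 choice changed at a time; points are limma estimates, bars their 95% intervals, and red marks an adjusted p under 0.05. Every plotted estimate is below 0, from -0.37 in the processed table to -0.08 without control replicate 3, and the processed table and median scaling are the settings with a call.

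The miR-212 arms were near background in both groups. miR-212-3p, which shares the seed of miR-132-3p, had densities of 113, 117 and 112 on TNF-α arrays 1 to 3 and 89.4, 107.6 and 93.7 on control arrays 1 to 3. Every TNF-α density lay above every control density, as for 37.1% of tested reporters, but the background peaks were higher with TNF-α too. Above the peak of its own array, miR-212-3p stood at 23.1, 27.9 and 31.5 with TNF-α and 17.2, 31.8 and 27.6 in controls, and there the groups overlapped. It exceeded the background limit on 0 TNF-α arrays and 2 control arrays, so no fold is given. The difference after normalization was 0.05 ± 0.09 on the log2 scale (SE, limma adjusted p = 0.726), with a 95% interval of -0.15 to 0.25, and it was -0.02 without control replicate 1 and -0.01 without TNF-α replicate 3.

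miR-212-5p, the other arm of the same hairpin, had densities of 109.9, 103.3 and 97.3 with TNF-α and 92.2, 102.7 and 88.2 in controls. The groups overlapped, with TNF-α array 3 below control array 2. Above the background peak it read 20.2, 13.9 and 16.3 with TNF-α and 20.1, 26.9 and 22.1 in controls, again with overlap. It exceeded the background limit on 0 TNF-α arrays and 1 control array, and no fold is given. The difference after normalization was -0.07 ± 0.07 (SE, limma adjusted p = 0.539), with a 95% interval of -0.22 to 0.09, and it was 0.10 without normalization and 0.04 with median scaling.

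The companion reporter miR-132*, the 5p arm of the miR-132 hairpin, was near background as well. Its densities were 114.6, 131.9 and 115.3 with TNF-α and 91.9, 112.3 and 109.4 in controls, and it exceeded the limit on 1 TNF-α array and 2 control arrays. Above the peak it read 24.9, 42.5 and 34.3 with TNF-α and 19.7, 36.5 and 43.3 in controls, and the groups overlapped. The change after normalization was 0.04 ± 0.11 (SE, limma adjusted p = 0.802), and it was -0.05 without control replicate 1 and -0.00466 without TNF-α replicate 2. In a dim reporter a change in the miRNA is diluted by background, so these intervals bound the change of the reading and not that of the miRNA.

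**Figure D3:**
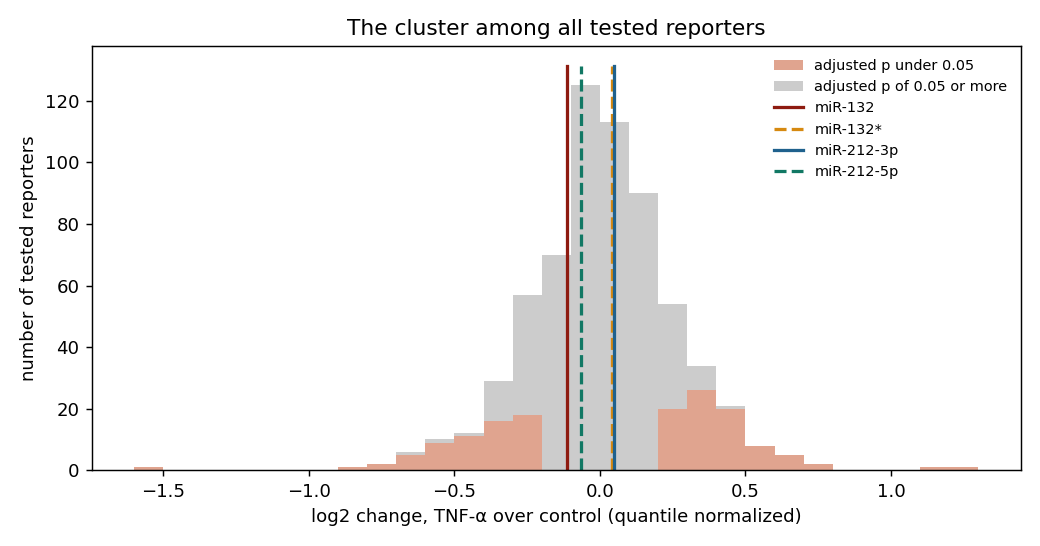
Histogram of log2 changes, TNF-α over control, for the 642 tested reporters after quantile normalization, with reporters of adjusted p under 0.05 in orange and the rest in grey; vertical lines mark miR-132, miR-132*, miR-212-3p and miR-212-5p. The 4 lines lie between -0.11 and 0.05, in the central part without calls.

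Among all tested reporters the members sat in the middle after quantile normalization. There the change of miR-132 was larger in size than that of 41.9% of tested reporters. For miR-212-5p the share was 24.3% and for miR-212-3p 17.3%. With median scaling the change of miR-132 relative to the median change was -0.44. Unequal change between members was tested by the difference of their normalized log2 values within each array. The change of miR-132 minus that of miR-212-3p was -0.16 (exact permutation test, two-sided, p = 0.2, adjusted p = 0.45 over 3 pairs). miR-132 minus miR-212-5p was -0.05 (exact p = 0.6, adjusted p = 0.6), and miR-212-3p minus miR-212-5p was 0.11 (exact p = 0.3, adjusted p = 0.45). With 3 arrays against 3 this test cannot give a p below 0.1, so it cannot show that the members changed alike or unlike.

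Over the 6 arrays, which share their 2 groups, the normalized values of miR-132 correlated weakly with those of miR-212-3p (r = 0.10) and miR-212-5p (r = 0.20), and those of the 2 miR-212 arms with each other at r = 0.26. The arms of the miR-132 hairpin, miR-132 and miR-132*, gave r = 0.50. The dim reporter miR-132* correlated with miR-212-3p at r = 0.80 and with miR-212-5p at r = -0.11. These correlations are given as descriptions.

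The reporters above background on all 6 arrays whose pattern over the arrays was most like that of miR-132 were miR-1897-5p (r = 0.89), miR-16 (r = 0.87) and miR-466m-3p (r = 0.87), out of 208. They changed by -0.32, -0.11 and -0.22 on the log2 scale, and none passed by limma (adjusted p = 0.0681, 0.401 and 0.0593). All 3 were called lower with median scaling (-0.46, -0.28 and -0.40), as were 9.35% of tested reporters. In the processed table they were also called lower (-0.49, -0.28 and -0.36), as were 28.4% of reporters tested there. Being picked for their likeness to miR-132 on the same arrays, they are no separate evidence on its calls. miR-1897-5p was also called with cyclic loess, without normalization and with a trended robust variance, and miR-466m-3p with cyclic loess, the larger offset, the background peak subtracted, and each of the 3 stricter filters. For miR-212-3p, out of 209, they were miR-17 (r = 0.91), of a cluster that promotes cell cycle progression, and miR-23b (r = 0.90) and miR-24 (r = 0.89), which are encoded in a common cluster. Their changes of -0.02, 0.10 and 0.03 did not pass (limma adjusted p = 0.876, 0.417 and 0.826), and that of miR-17 was 0.03 without normalization. For miR-212-5p they were miR-467a* (r = 0.87), miR-218 (r = 0.83) and miR-335-5p (r = 0.82). Of these miR-467a* fell by 0.39 and miR-218 by 0.53 (limma adjusted p = 0.0269 and 0.0200), and miR-335-5p, at -0.14, did not pass (adjusted p = 0.358), but was called lower in the processed table (-0.40, adjusted p = 0.00503). The call of miR-218 was lost without control replicate 1 (-0.52), 2 (-0.50) or 3 (-0.52), and that of miR-467a* when control replicate 2 (-0.32) or 3 (-0.38), or TNF-α replicate 1 (-0.41) or 2 (-0.34), was left out, and with the smaller offset (-0.40). With 6 arrays and this many candidates, correlations of this size say little about any 1 pair.

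The nearest other miRNA genes on chromosome 11 did not pass either. miR-22, encoded 290.0 kb beyond Mir132 and abundant in smooth muscle, was at 3954 ± 196 with TNF-α and 4525 ± 345 in controls (SD, n = 3 each), a change of -0.08 ± 0.08 (SE, limma adjusted p = 0.520). Its other arm, miR-22*, changed by -0.07 ± 0.11 (adjusted p = 0.702), and by 0.01 without normalization. miR-3971, 377.7 kb away, was above background on no array. miR-3971 changed by 0.18 ± 0.09 (adjusted p = 0.181) and was called higher without normalization (0.36) and with median scaling (0.31). The remaining miRNA gene within 500 kb, Mir6926, has no reporter of that name among those analysed.

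Among miRNAs linked to angiotensin II, the stimulus known to raise miR-132 and miR-212, 3 of 9 tested reporters rose and 1 fell, against 12.9% and 9.81% of all tested reporters. The list holds miRNAs linked to the hormone or its receptor, miR-132* among them, and was chosen with earlier results of these data known. A response like that to angiotensin II was not tested. The median change was 0.04 in the list and 0.01 over all tested. miR-29b, which represses collagen mRNAs, rose by 0.60 ± 0.08 on the log2 scale (SE, limma adjusted p = 0.00227), with densities of 354 ± 45.2 with TNF-α and 240 ± 21.4 in controls (SD, n = 3 each). miR-130a, linked to VSMC proliferation, rose by 0.28 ± 0.07 (adjusted p = 0.0237). Median scaling turned it to -0.01, and the call was also lost without normalization (0.04), in the processed table (0.03), with cyclic loess (0.18), with the smaller offset (0.29), when control replicate 1 (0.26) or 3 (0.29) was left out, and when TNF-α replicate 1 (0.26), 2 (0.26) or 3 (0.26) was left out.

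miR-483*, from the other arm of the miR-483 hairpin in the Igf2 gene, rose by 0.27 ± 0.08 (adjusted p = 0.0460), above background on 3 TNF-α arrays and 1 control array. Its call was lost when control replicate 2 (0.27) or 3 (0.20) was left out, when TNF-α replicate 1 (0.28), 2 (0.29) or 3 (0.24) was left out, with no filter (0.27), and with the smaller (0.44) and the larger offset (0.15). miR-155, which targets the angiotensin II receptor mRNA in humans, fell by 0.27 ± 0.07 (adjusted p = 0.0279) but was above background on no array. Its call was lost with median scaling (-0.14) and with no normalization (-0.09), when control replicate 1 (-0.27) or 2 (-0.24) was left out, and when TNF-α replicate 1 (-0.25) or 3 (-0.26) was left out. miR-21, miR-221, miR-222, miR-483 and miR-132* did not pass.

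Of 11 reporters for miRNAs regulated by neural activity or light, a setting in which miR-132 is best known, 7 were tested. By limma 0 rose and 0 fell, against 12.9% and 9.81% of all tested reporters. Before adjustment, 2 of the 7 were lower and 0 higher at a p under 0.05. Of all tested reporters, 35.5% passed that p in either direction and 16.8% were lower by it. The median change was -0.04 in this list. miR-182, above background on all 6 arrays, was at 173 ± 10.3 with TNF-α and 187 ± 14.8 in controls, a change of -0.20 ± 0.07 (SE, adjusted p = 0.0775). It was called lower in the processed table (-0.35) and with a filter at 100 (-0.20). miR-134, a regulator of dendritic spines in neurons, changed by -0.22 ± 0.08 (adjusted p = 0.0905) and was above background on control arrays only, with -0.35 and a call in the processed table. miR-485 (0.16 ± 0.08, adjusted p = 0.164) and miR-211 (-0.09 ± 0.09, adjusted p = 0.517) were above background on no array. miR-485 was called higher without normalization (0.36) and with median scaling (0.31), while miR-211 turned to 0.10 and 0.05 there with no call.

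**Figure D4:**
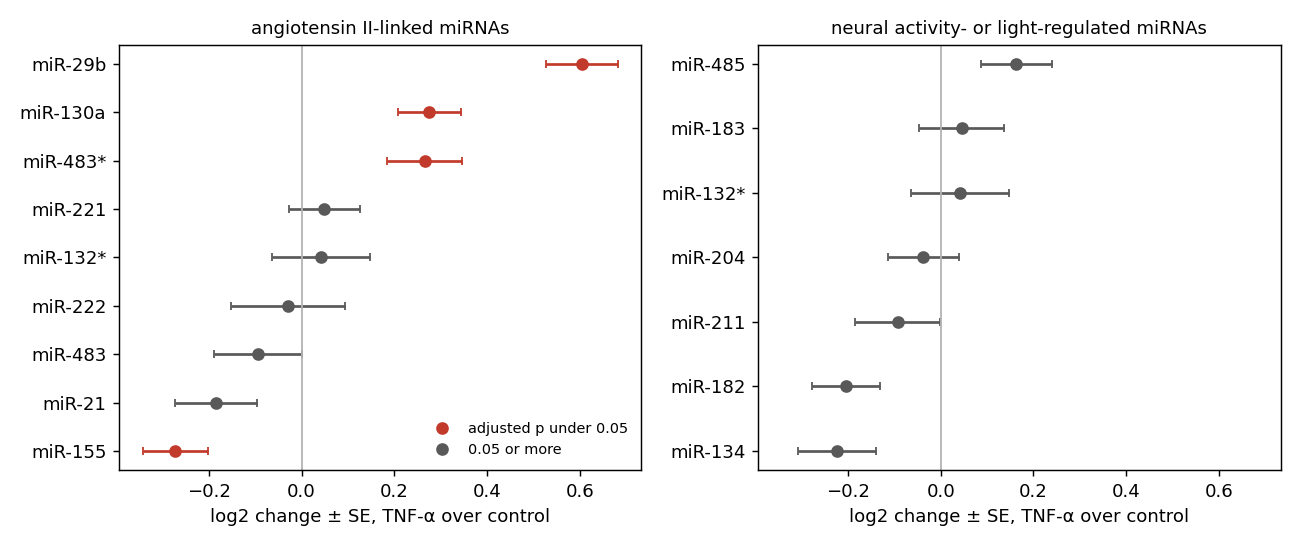
Log2 changes, TNF-α over control, with SE (n = 3 per group) for the tested reporters of the angiotensin II-linked list and of the neural activity- or light-regulated list; red marks an adjusted p under 0.05. miR-29b, at 0.60, lies farthest to the right, and the second list has no call.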

How the data were processed

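Per the labels' protocols, total RNA was poly(A)-tailed, tagged and stained with Cy5, 1 colour per array. The authors deposited an unsubtracted median density intensity and an SD per reporter for each array, per the file headers, and a table of processed intensities; the background and scaling of that table, the scanner and its software were not given in the sources used here. Replicates were numbered from the titles, because 2 TNF-α descriptions carry the same number.

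Densities were corrected by normexp (offset 50), taken to log2, quantile normalized and tested with limma 3.58.1 (R 4.3.3), two-sided, with group as the only term and Benjamini-Hochberg adjustment over 642 reporters that reached a corrected density of 32 on at least 3 arrays. The offset understates changes. For the processed table, 32 was added before log2, with the same filter and no further scaling. All table columns were assigned to samples.

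Members and lists were chosen with earlier results of these data known. Text names the members, the 3 most similar reporters each, the 4 list members with smallest p and miRNAs within 500 kb. Entries were matched by name; miR-129-3p and the striated muscle marker miR-1 had no match. VSMC markers miR-143 and miR-145 (0 of 2 called), striated muscle markers (1 of 3 lower) and endothelial markers (0 of 1 tested) were also read. Median scaling and the processed table with each array left out were added after seeing the data. No slide was given, so none could be a term. The procedure was tested on simulated data, with changes larger than that of miR-132 given only to reporters above background on all arrays. That simulation does not cover reporters near background or changes as small as that of miR-132. The number of arrays limits the precision, and in bulk RNA fewer cells and less RNA per cell cannot be told apart.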

Additional observations from a re-analysis of the deposited data

How the results depend on the processing

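miR-132 was lower under every alternative run and was called in the processed table (-0.37) and with median scaling (-0.36). Changing only the filter, the variance model or the block cannot move its estimate, which stayed at -0.11, and bears only on the call. With 1 array left out miR-132 was -0.17 to -0.081 with quantile normalization. With control replicates 1, 2 and 3 left out in turn it was -0.39, -0.29 and -0.38 under median scaling and -0.38, -0.30 and -0.44 in the processed table. With TNF-α replicates 1, 2 and 3 left out in turn it was -0.32, -0.43 and -0.36 under median scaling and -0.36, -0.46 and -0.30 in the processed table. The sign of the 2 miR-212 arms was not stable. miR-212-5p turned to 0.10 without normalization and 0.043 with median scaling, and miR-212-3p ran from -0.020 to 0.089 with 1 array left out. No difference between members changed sign, but miR-132 minus miR-212-5p shrank to -0.0098 with the smaller offset and -0.0049 without TNF-α replicate 1. Without normalization miR-132 minus miR-212-3p was -0.51, a difference that median scaling, which shifts whole arrays, cannot alter.

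Against 83 reporters higher and 63 lower, there were 163 and 41 without normalization, 126 higher with median scaling, 39 higher in the processed table, 51 higher with the background peak subtracted, 50 higher with the filter on all 6 arrays, 52 higher with the filter at the background limit, and 38 and 39 with a filter at 100. With 1 array left out 37 to 56 were higher and 26 to 47 lower. Of all calls, 56.8% were higher as reported, 79.9% without normalization, 32.5% in the processed table and 67.7% with median scaling. The cause was not tested.

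With the replicate block, 55 were higher and 48 lower, and miR-132 was -0.11 (limma adjusted p = 0.319). Same-numbered arrays deviated together at r = 0.04, 0.02 and 0.15. TNF-α arrays 1 and 3 correlated best with the control array of the same number, and TNF-α array 2 with control array 1 (r = 0.10). With 3 arrays per group these correlations cannot decide whether same-numbered arrays are paired. Among named reporters the block lost the calls of miR-130a (adjusted p = 0.0508), miR-467a* (0.0589) and miR-483* (0.0920).

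Among reporters that are no members, miR-211 was 0.10 without normalization and 0.047 with median scaling, miR-130a -0.013 with median scaling, and miR-22* 0.011 and miR-17 0.035 without normalization. With 1 array left out miR-132* ran from -0.047 to 0.12, miR-22* from -0.19 to 0.00020, miR-17 from -0.090 to 0.014 and miR-24 from -0.040 to 0.084. miR-212-3p and miR-212-5p did not reach the filters at 100 and at the background limit, or the filter with the background peak subtracted. miR-212-5p did not reach that of the processed table either. The log2 change of these arms therefore has no value in those settings. A slide term was not run. Signal over background limits the readings of miR-212-3p, miR-212-5p and miR-132*, which exceeded the background limit on 2, 1 and 3 of 6 arrays.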
